A study of Homo sapiens with 4 samples.

Results

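A set of 9 genes known from oligodendrocyte precursors and radial glia was followed in RNA-seq libraries of HGC-27, a human gastric cancer (GC) cell line. The genes were OLIG1, OLIG2, PTPRZ1, BCAN, NCAN, CSPG4, FABP7, S100B and CNP. They were found by gene name, and all 9 of the 31907 names joined over the libraries had a count in at least 1 library. They had been chosen from earlier results on the same counts, in which their levels in the 4 libraries were already known, so the levels and differences below are a description of the genes and not a test of them. HGC-27 cells received PBS in 2 libraries (replicates 1 and 2) or recombinant IL-17B (rIL-17B) at 200 ng/ml in the other 2 (replicates 1 and 2), all for 48 h. The labels do not say that replicates came from separate cultures, so p-values measure only the spread between these libraries, which may be technical. The extraction text in the labels speaks of monocytes, whereas source and cell line are given as HGC-27.

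Oligodendrocyte precursors are glial progenitors that later make myelin, and radial glia are the neural stem cells from which neurons and glia arise. OLIG1 and OLIG2 are basic helix-loop-helix transcription factors that set the oligodendrocyte fate. PTPRZ1 is a receptor tyrosine phosphatase that carries chondroitin sulfate chains, CSPG4 (NG2) is a transmembrane chondroitin sulfate proteoglycan, and BCAN and NCAN are lecticans, the secreted chondroitin sulfate proteoglycans of brain matrix. FABP7 is the brain fatty acid binding protein of radial glia, S100B is a calcium-binding protein of glia, and CNP is an enzyme of myelin that many other cell types also make. Several of these genes are expressed in gliomas, and CSPG4 and S100B also in melanoma and other cells of neural crest origin, with CSPG4 in pericytes as well.

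Totals were 15904594 and 12888029 counts for PBS replicates 1 and 2 and 14615341 and 17555879 for the treated replicates, so that 3 counts, the limit that a count of 0 allows, correspond to between 0.171 and 0.233 CPM (the count divided by the library total, times 1000000). rIL-17B replicate 1 stood apart from the rest: it differed at least 2-fold from rIL-17B replicate 2 in 2771 of the 16361 genes tested, against 104 genes between the PBS libraries (0.5 CPM added to each value). Each result is therefore given for the treated libraries one by one. The epithelial keratin gene KRT8 had 601, 611, 1457 and 787 CPM in PBS replicates 1 and 2 and rIL-17B replicates 1 and 2, and KRT19, another keratin gene, had 47, 43, 1 and 58 counts. CDH1, which encodes the epithelial cadherin, stayed under 0.76 CPM in each library and of the gastric genes TFF1 and PGC had 0 counts in all 4, while MUC1, a mucin of many epithelia, had 20.8, 23.4, 34.2 and 25.1 CPM. The part that differences in cell makeup have in the results below was not tested. In such bulk RNA, fewer cells of a type and less RNA per cell cannot be told apart.

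PTPRZ1, OLIG1, OLIG2 and FABP7 were plainly present in 3 libraries and at 0 or 1 count in rIL-17B replicate 1. PTPRZ1 (chromosome 7, 121873089 to 122062036, GRCh38, GENCODE 29) reached 4250 and 5527 counts in the PBS libraries, and 0 counts in rIL-17B replicate 1 against 3208 in replicate 2. As levels these are 267, 429, 0 and 183 CPM. PTPRZ1 was thus at least 1696-fold lower in rIL-17B replicate 1 than the PBS mean, with 3 counts in that library taken as the limit, and 1.90-fold lower in rIL-17B replicate 2. Both treated libraries were below both PBS libraries. As a ratio of levels, the treated libraries lay further from each other than rIL-17B replicate 2 did from either PBS library.

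OLIG1 and OLIG2 are neighbours on chromosome 21 (33070144 to 33072420 and 33025845 to 33029196), on the same strand. OLIG1 had 736 and 916 counts in the PBS libraries, and 0 in rIL-17B replicate 1 against 486 in replicate 2 (46.3, 71.1, 0 and 27.7 CPM). OLIG2 had 634, 869, 0 and 515 counts in the same order of libraries (39.9, 67.4, 0 and 29.3 CPM). Relative to the PBS mean, OLIG1 was at least 286-fold and OLIG2 at least 261-fold lower in rIL-17B replicate 1, again at a limit of 3 counts. In rIL-17B replicate 2 they were 2.12-fold and 1.83-fold lower. AP000282.1, the antisense gene that GENCODE places across both, had 0 counts in all 4 libraries.

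FABP7 (chromosome 6, 122779475 to 122784074) reached 283 and 355 counts in the PBS libraries, and 1 count in rIL-17B replicate 1 against 206 in replicate 2 (17.8, 27.5, 0.0684 and 11.7 CPM). Against rIL-17B replicate 2, the single count in replicate 1 corresponds to a level 171-fold lower (95% exact interval 30.4 to 6806, counting error only). Of 8 other fatty acid binding protein genes, 2 were tested, and neither was 2-fold lower in rIL-17B replicate 1. FABP5, the relative found in many epithelia, had 17, 12, 14 and 19 counts, and FABP3, the form of heart muscle, had 114, 78, 223 and 148.

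S100B (chromosome 21, 46598962 to 46605208) was low. It had 45 and 96 counts in the PBS libraries, and 1 in rIL-17B replicate 1 against 60 in replicate 2, or 2.83, 7.45, 0.0684 and 3.42 CPM. rIL-17B replicate 2 lay between the PBS libraries, so the groups overlapped. S100B nonetheless had at most 1 count in rIL-17B replicate 1, like PTPRZ1, OLIG1, OLIG2, FABP7 and NCAN, which makes 6 of the 9 genes. NCAN had only 2 and 3 counts in the PBS libraries, so its 0 shows no difference.

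**Figure D1:**
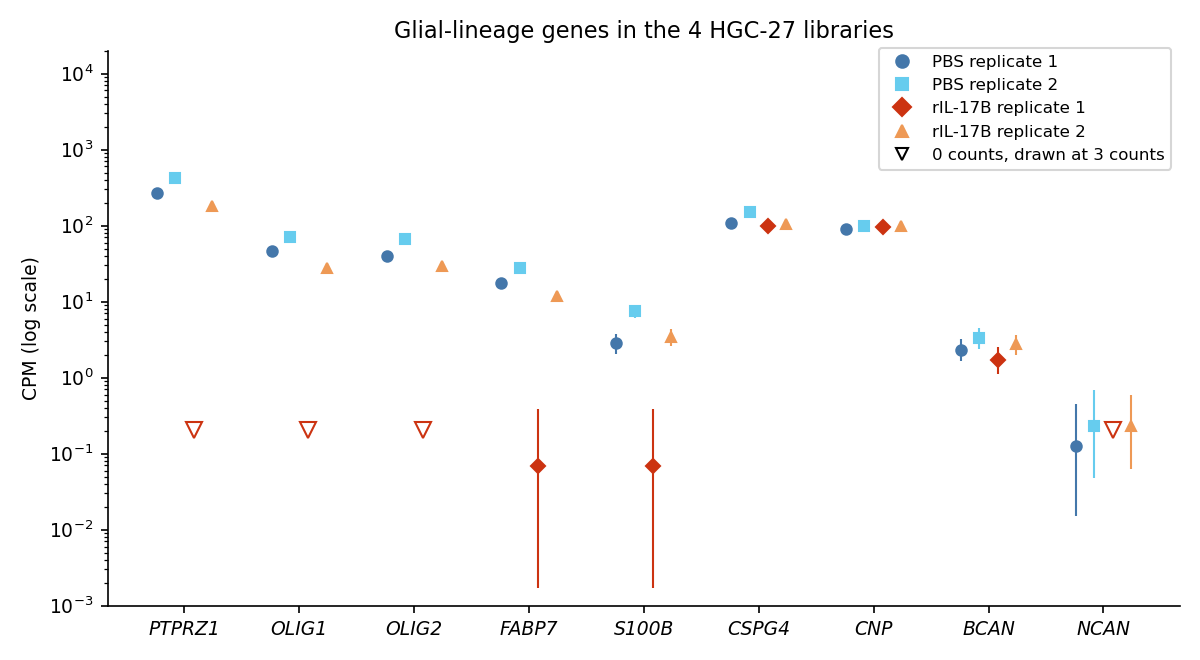
Level of each of the 9 genes in each library, in CPM on a log axis. Points are single libraries, bars are 95% exact intervals for counting error, and open triangles stand for 0 counts and are drawn at the level of 3 counts. PTPRZ1, OLIG1, OLIG2, FABP7 and S100B are at 0 or 1 count in rIL-17B replicate 1, whereas CSPG4 and CNP lie between 91.1 and 149 CPM in all 4 libraries.

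CSPG4 and CNP behaved differently. CSPG4 (chromosome 15, 75674322 to 75712848) was counted 1733 and 1919 times in the PBS libraries and 1457 and 1846 times in the treated ones, or 109, 149, 99.7 and 105 CPM. The rIL-17B libraries were both below the PBS libraries. On library totals, replicate 1 of the treated pair was at 0.948 times replicate 2 (95% exact interval 0.885 to 1.016), which includes equal levels. Scaled by the TMM factors of the fit given below, rIL-17B replicate 1 had 92.9 CPM and replicate 2 had 107 CPM. No interval was computed at that scaling. CNP (chromosome 17, 41966741 to 41977731) lay at 91.1 and 98.6 CPM in the PBS libraries and at 96.5 and 99.1 CPM in the treated ones, and the groups overlapped. CNP shares its position with DNAJC7 on the other strand (1105, 882, 1410 and 1301 counts), so that without known use of strand its counts are uncertain.

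BCAN and NCAN, the lecticans among the 9 genes, were scarce. BCAN (chromosome 1, 156641390 to 156659532) was counted 37 and 43 times in the PBS libraries and 25 and 48 times in the treated ones, from 1.71 CPM in rIL-17B replicate 1 to 3.34 CPM in PBS replicate 2. On library totals, the 95% exact interval of rIL-17B replicate 1 against replicate 2, 0.370 to 1.03, includes equal levels. With the TMM factors BCAN had 1.59 CPM in rIL-17B replicate 1 and 2.79 CPM in replicate 2, and no interval was computed. The antisense RNA AL365181.3, which overlaps BCAN, had more counts than BCAN itself (104, 124, 209 and 167), so that without known use of strand the BCAN counts are uncertain. NCAN (chromosome 19, 19211973 to 19252233) was counted 2 and 3 times in the PBS libraries and 0 and 4 times in the treated ones, at or near the limit that a count of 0 allows. No difference in NCAN was detectable at this depth.

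Per kilobase of merged exons, and as a mean of the PBS libraries, the levels ran from 35.1 CPM per kb for PTPRZ1 through 25.8 for OLIG1, 16.004 for OLIG2, 15.6 for CSPG4, 12.8 for CNP, 8.31 for FABP7, 3.55 for S100B and 0.574 for BCAN to 0.0260 for NCAN. PTPRZ1 exceeded between 95.5% and 97.4% of all gene names per kilobase in the PBS libraries, and OLIG1 between 93.6% and 96.3%. OLIG2 had 11.9 and 20.1 CPM per kb in PBS replicates 1 and 2, CSPG4 had 13.1 and 17.96, and CNP had 12.3 and 13.3. OLIG2 was below CSPG4 and CNP in PBS replicate 1 and above both in PBS replicate 2, so its place is not distinguished. CSPG4 was above CNP in each PBS library, and PTPRZ1 (26.9 and 43.2) was above OLIG1 (20.3 and 31.2) in each. The ranges of these pairs over the PBS libraries nonetheless overlapped. In rIL-17B replicate 1 the order was another one, with CNP (12.99 CPM per kb) and CSPG4 (12.03) first and BCAN (0.347) next.

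Promoter windows are shown for PTPRZ1 and FABP7, which were at 0 or 1 count in rIL-17B replicate 1, and for CSPG4, which was present in all 4 libraries. RefSeq (GRCh38.p14) gave windows of 300 bases, from 250 before to 50 after the annotated start, for 5 of the 9 genes. PTPRZ1 lies at chr7:121872911-121873210 on the plus strand, FABP7 at chr6:122779466-122779765 on the plus strand and CSPG4 at chr15:75712799-75713098 on the minus strand, all written 5′ to 3′ along the gene. Capitals mark the E-box CANNTG, the letters read by basic helix-loop-helix factors such as OLIG2, and ACAAT, the core letters of SOX factors, both searched on both strands.
PTPRZ1: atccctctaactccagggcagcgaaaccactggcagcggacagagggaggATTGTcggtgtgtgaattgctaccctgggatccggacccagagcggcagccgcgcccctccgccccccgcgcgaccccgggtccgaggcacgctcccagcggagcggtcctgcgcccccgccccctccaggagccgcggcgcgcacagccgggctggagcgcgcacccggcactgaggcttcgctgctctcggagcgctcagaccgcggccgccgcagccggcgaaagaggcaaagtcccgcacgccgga
FABP7: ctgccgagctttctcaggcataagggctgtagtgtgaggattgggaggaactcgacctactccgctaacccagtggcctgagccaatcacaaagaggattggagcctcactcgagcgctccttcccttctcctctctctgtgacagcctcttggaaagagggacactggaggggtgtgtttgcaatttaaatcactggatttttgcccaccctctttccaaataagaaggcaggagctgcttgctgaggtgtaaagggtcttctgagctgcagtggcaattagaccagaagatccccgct
CSPG4: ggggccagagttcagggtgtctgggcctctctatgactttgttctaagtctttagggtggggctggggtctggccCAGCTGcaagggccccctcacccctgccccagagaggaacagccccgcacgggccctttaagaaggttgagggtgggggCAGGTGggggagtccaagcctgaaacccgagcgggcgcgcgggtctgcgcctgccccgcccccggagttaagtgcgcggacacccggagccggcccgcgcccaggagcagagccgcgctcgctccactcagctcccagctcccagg

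The CSPG4 window held 2 E-boxes and those of PTPRZ1 and FABP7 held 0, where 68.7% of all 34943 windows held at least 1. The absence of E-boxes was not particular to PTPRZ1 and FABP7: the window of BCAN held 0, and those of CNP held 0 and 1, both genes present in rIL-17B replicate 1. ACAAT was found once in PTPRZ1 and in neither FABP7 nor CSPG4, against 27.4% of all windows. Other forms of the SOX letters were not searched, so their absence is not shown. The octamer ATGCAAAT (both strands) and TATAAA (gene strand only) were in none of the 3, and in 1.77% and 7.35% of all windows. The PTPRZ1 window was rich in CpG, with 38 CpG in 300 bases and an observed over expected ratio of 0.949, and that of FABP7 was poor, with 6 CpG and a ratio of 0.289. The median over all windows was 0.577, so PTPRZ1 and FABP7 lay on either side of it. Letters of this kind are a description of the window and not of binding.

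Across the 16361 genes that passed the filter on low counts, the quasi-likelihood test of edgeR, with p-values adjusted by Benjamini-Hochberg, called 0 genes between rIL-17B and PBS at 0.05 (0% of genes, smallest adjusted p = 0.661), with 226 genes at an unadjusted p under 0.05, and DESeq2 called 0 with 457. NCAN did not pass the filter, and 0 of the other 8 genes were called. Their fitted log2 fold changes were -2.08 for OLIG1, -1.94 for FABP7, -1.93 for PTPRZ1, -1.87 for OLIG2, -1.55 for S100B, -0.40 for CSPG4, -0.40 for BCAN and -0.02 for CNP. The standard errors were not fitted separately but set as the change divided by the square root of the test's F, so they restate that F. Those of the first 5 were between 1.67 and 2.58 and exceeded the change itself in 4 of them, the exception being FABP7 (1.90).

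Both rIL-17B libraries were below both PBS libraries for 5 of the 9 genes, PTPRZ1, OLIG1, OLIG2, FABP7 and CSPG4, where 27.5% of all genes tested showed that. rIL-17B replicate 1 was at least 2-fold below the PBS mean for 5 of the 8 members tested, against 20.7% of genes tested. NCAN, which was not tested, would make 6 of the 9, but it rests on 2 and 3 counts in the PBS libraries and 0 there. rIL-17B replicate 2 was at least 2-fold below the PBS mean for 1, OLIG1, against 2.08%. Among genes with at least 200 counts in each PBS library, 1.55% had at most 1 count in rIL-17B replicate 1, and 4 of the 6 such members did.

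Without rIL-17B replicate 1, the same edgeR test of rIL-17B replicate 2 against the PBS libraries called 3.03% of genes, and 2.38% of genes as lower. It called 5 of the 8 members, all lower, which restates values used in choosing the genes. The log2 fold changes in that fit were -1.08 for OLIG1, -0.94 for FABP7, -0.93 for PTPRZ1, -0.86 for OLIG2 and -0.30 for CSPG4. S100B (-0.56), BCAN (-0.04) and CNP (0.06) were not called. That test rests on 1 treated library, assumed to vary like the PBS libraries, and on 1 residual degree of freedom, with a spread shared almost wholly over genes, so that a gene's own spread between the PBS libraries counts for little. Without rIL-17B replicate 2 instead, 57.3% of genes and 6 of the 8 members were called.

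The PBS libraries differed from each other in most of these genes. PBS replicate 2 was above PBS replicate 1 by 1.54-fold for OLIG1 (95% exact interval 1.39 to 1.69), 1.55-fold for FABP7 (1.32 to 1.82), 1.60-fold for PTPRZ1 (1.54 to 1.67) and 1.69-fold for OLIG2 (1.53 to 1.88). These 4 intervals overlap. The ratio was 2.63-fold for S100B (1.83 to 3.84), whose interval overlaps that of OLIG2, 1.37-fold for CSPG4 (1.28 to 1.46), which overlaps those of OLIG1 and FABP7, and 1.08-fold for CNP (1.003 to 1.17), below all of these. PBS replicate 2 was at least 1.5-fold above PBS replicate 1 for 6 of the 9 genes, of which NCAN rests on 2 and 3 counts. Of the 8 members tested it was 5, against 6.08% of genes tested. Among the 8897 genes with at least 200 counts in each PBS library, 0.551%, or 49 genes, differed so, and 4 of those 49 were members. OLIG2 ranked 12, PTPRZ1 ranked 22, FABP7 ranked 33 and OLIG1 ranked 37 of the 8897 by this ratio, CSPG4 ranked 118 and CNP ranked 1985.

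Of the 9 genes, 5 (PTPRZ1, OLIG1, OLIG2, FABP7 and CSPG4) were highest in PBS replicate 2, then PBS replicate 1, then rIL-17B replicate 2, and lowest in rIL-17B replicate 1, against 15.3% of genes tested. rIL-17B replicate 2 was at 0.598 times PBS replicate 1 for OLIG1 (95% exact interval 0.532 to 0.672), 0.659 times for FABP7 (0.548 to 0.792), 0.684 times for PTPRZ1 (0.653 to 0.716) and 0.736 times for OLIG2 (0.654 to 0.828). For CSPG4 it was at 0.965 times (0.903 to 1.03), which includes equal levels. These comparisons share PBS replicate 1. Set beside the gaps between the PBS libraries, the step from rIL-17B replicate 2 up to PBS replicate 1 was 1.67-fold for OLIG1 (95% exact interval 1.49 to 1.88), 1.52-fold for FABP7 (1.26 to 1.82), 1.46-fold for PTPRZ1 (1.40 to 1.53) and 1.36-fold for OLIG2 (1.21 to 1.53). The intervals of step and gap overlap for OLIG1, FABP7 and, narrowly, OLIG2. Step and gap share PBS replicate 1 and their difference was not tested, so the overlap does not decide whether they differ. For PTPRZ1 the intervals, which rest on library totals and cover counting error only, did not overlap and the step was the smaller. Scaled by the TMM factors of the fit, PTPRZ1 had 275 and 437 CPM in PBS replicates 1 and 2 and 187 CPM in rIL-17B replicate 2. No interval was computed at that scaling, so the separation may depend on it.

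Within a library, PTPRZ1, OLIG1, OLIG2 and FABP7, at 0 or 1 count in rIL-17B replicate 1, had these proportions in the other 3. PTPRZ1 had 15.02, 15.6 and 15.6 counts for each count of FABP7 in PBS replicates 1 and 2 and rIL-17B replicate 2. OLIG1 had 2.60, 2.58 and 2.36 counts for each count of FABP7, and 1.16, 1.05 and 0.944 for each count of OLIG2. CSPG4 had 0.408, 0.347 and 0.575 counts for each count of PTPRZ1, highest in rIL-17B replicate 2. S100B and NCAN, also at 0 or 1 count in rIL-17B replicate 1, are not among these ratios. In rIL-17B replicate 2, S100B was at 1.21 times PBS replicate 1 (95% exact interval 0.807 to 1.82). PTPRZ1, OLIG1, OLIG2 and FABP7 were lower there than in PBS replicate 1.

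**Figure D2:**
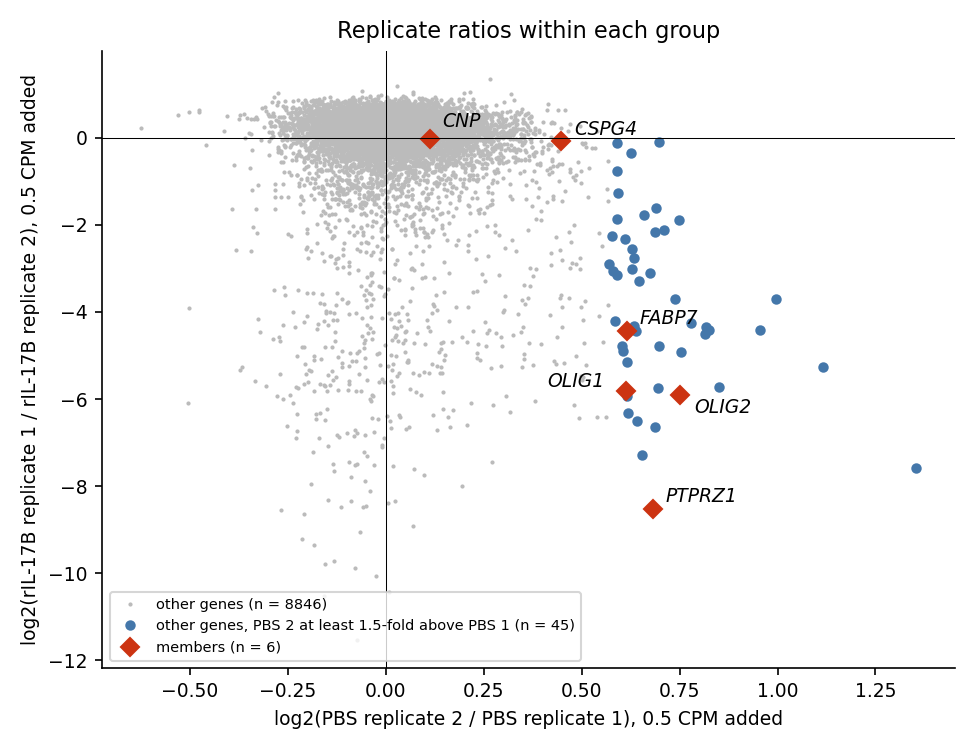
Ratio of PBS replicate 2 to PBS replicate 1 (x axis) and of rIL-17B replicate 1 to rIL-17B replicate 2 (y axis), both as log2 with 0.5 CPM added, for the 8897 genes with at least 200 counts in each PBS library. The axes share no library. PTPRZ1, OLIG1, OLIG2 and FABP7 lie at the lower right, with 45 other genes at least 1.5-fold higher in PBS replicate 2 shown in blue, and CSPG4 and CNP lie near 0 on the y axis.

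The other 45 genes with this gap between the PBS libraries, chosen after their values were seen, are given for comparison. Of them, 43 were at least 2-fold below the PBS mean in rIL-17B replicate 1, where 11.6% of the 8897 genes were, and 43 were below PBS replicate 1 in rIL-17B replicate 2, where 41.5% of the 8897 genes were. They include SOX2 (75.5, 116, 10.9 and 56.6 CPM in PBS replicates 1 and 2 and rIL-17B replicates 1 and 2), a transcription factor of neural and other stem cells. NES, the intermediate filament nestin of neural progenitors, had 220, 345, 16.1 and 162 CPM. POU3F2, a neural POU factor, had 13.8, 23.6, 2.87 and 12.02 CPM.

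By Euclidean distance between log2(CPM + 0.5) profiles over the 4 libraries, centred on the PBS mean, among 14920 genes, the nearest to OLIG2 was TRDC, a T cell receptor constant region gene, at 0.109 (41.4, 63.7, 0 and 30.1 CPM), followed by LZTS1 at 0.150. LZTS1 was also the nearest to OLIG1, at 0.283, followed by OLIG2 at 0.285. FABP7 was nearest to SEMA6A, a semaphorin of axon guidance, at 0.153, and to the teneurin TENM1 at 0.185. For PTPRZ1 the nearest were MMP14 at 0.742 and BGN at 0.836. For PTPRZ1, OLIG1 and OLIG2, at 0 counts in rIL-17B replicate 1, the value there is set by the added 0.5 CPM and the PBS level, so the distance ranks genes partly by abundance. The same holds nearly in full for FABP7 and S100B, at 1 count there (0.0684 CPM). S100B lay nearest to AZGP1 (0.360) and ATP2B2 (0.381), and BCAN to RASL10B (0.062) and AC053513.1 (0.092). CSPG4 was nearest to AC093726.1 (0.050) and TEAD2 (0.068), and CNP to FAM32A (0.018) and ITCH (0.032).

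Most genes around OLIG2 were present in rIL-17B replicate 1. Of the 9 genes tested within 500 kb of its start, OLIG1 left aside, 4 were at least 2-fold below the PBS mean in that library, and the median log2 ratio was -0.71 (0.5 CPM added), against -6.76 for OLIG2 and -6.89 for OLIG1. The interferon receptor gene IFNAR1 had 1320 and 1084 counts in the PBS libraries, and 937 in rIL-17B replicate 1 against 1368 in replicate 2, and SYNJ1 had 411, 376, 380 and 416. S100B, further along the same chromosome, had 13 tested neighbours within 500 kb, of which 2 were 2-fold lower in rIL-17B replicate 1, with a median log2 ratio of 0.05. SMPDL3A, which starts 9.57 kb from FABP7, had 190, 117, 129 and 207 counts. Around PTPRZ1, by contrast, 3 of 4 tested genes were 2-fold lower, AASS with 311, 255, 2 and 270 counts among them.

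**Figure D3:**
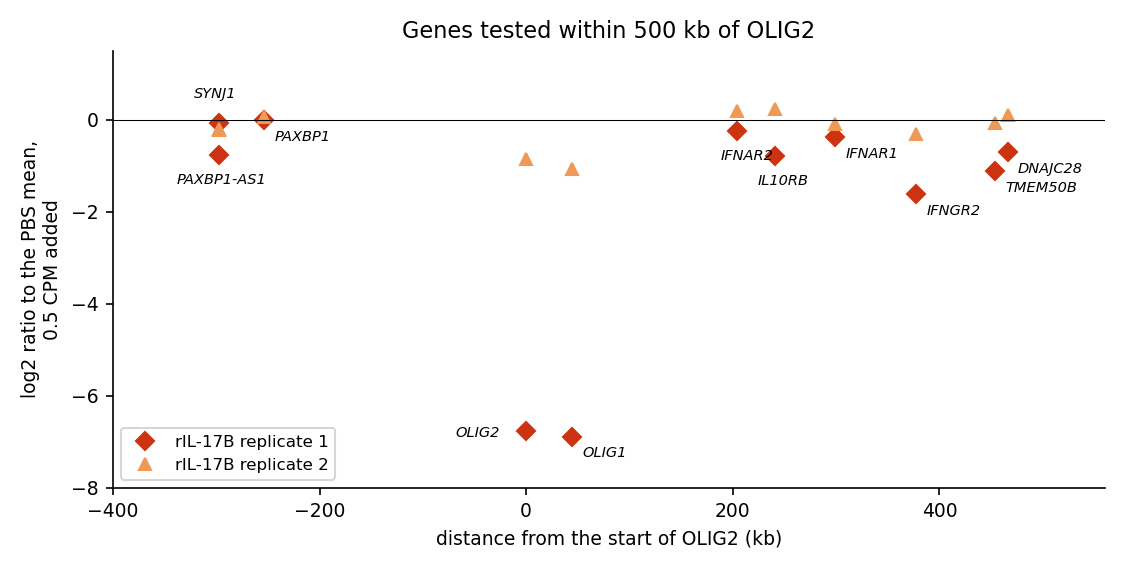
Genes tested within 500 kb of the start of OLIG2, by distance in kb (x axis) and log2 ratio to the PBS mean with 0.5 CPM added (y axis), in each rIL-17B library. OLIG1 and OLIG2 lie near -7 in rIL-17B replicate 1, and no other gene of the region is below -2.

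Other genes of the oligodendrocyte lineage and of myelin did not form a full set. Of 21, 19 had a count and 9 were tested, with 0 called in either direction by edgeR, 5 at least 2-fold below the PBS mean in rIL-17B replicate 1, and median log2 ratios of -1.09 and -0.17 in rIL-17B replicates 1 and 2 (0.08 and -0.001 over all genes tested). SOX10, which oligodendrocytes and melanocytes need, and NKX6-2 had 0 counts in all 4 libraries, and the myelin gene MOG had 3, 3, 3 and 3. PDGFRA, the growth factor receptor of oligodendrocyte precursors and of mesenchymal cells, had 2440 and 2116 counts in the PBS libraries, and 1 in rIL-17B replicate 1 against 2113 in replicate 2. CLDN11, a claudin of myelin and Sertoli cells, had 3184, 2200, 13 and 2899. NKX2-2, a homeobox factor of oligodendrocyte precursors, had 23, 32, 0 and 13 counts, while MBP, the myelin basic protein gene, had 19.2, 16.99, 29.4 and 20.5 CPM. TCF7L2, a Wnt pathway factor of many cell types, had 27.1, 34.4, 33.1 and 28.9 CPM. Since SOX10 was at 0 and MOG at the limit of 3 counts, the 9 genes are described here by name only and no cell type is given to the cells.

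Of 21 further radial glia and neural progenitor genes, 20 had a count and 15 were tested. By edgeR 0 were called, 9 were at least 2-fold lower in rIL-17B replicate 1, and the median log2 ratios were -1.35 and -0.48 in rIL-17B replicates 1 and 2. The 4 with the highest mean level were VIM (727, 706, 280 and 615 CPM), NES, DBI (108, 119, 127 and 106 CPM) and LIFR (86.1, 87.3, 88.6 and 89.6 CPM). VIM and NES were lowest in rIL-17B replicate 1, where DBI and LIFR were not. PBS replicate 2 was at least 1.5-fold above PBS replicate 1 in 4 of the 15. Of 6 astrocyte genes, 3 were tested and 2 of them were 2-fold lower in rIL-17B replicate 1. GJA1, a gap junction protein of astrocytes and many other cells, had 3654, 2594, 4 and 3343 counts, and GFAP, the defining filament of astrocytes, stayed under 0.70 CPM in every library. Of 10 neuron genes, 7 were tested and 6 were 2-fold lower in rIL-17B replicate 1, GAP43, a growth cone protein, among them with 28.6, 40.8, 0.342 and 21.6 CPM. MAP2, of neuronal dendrites, had 57.3, 77.2, 31.5 and 44.3 CPM, and SNAP25, of the synapse, 22.8, 22.9, 24.9 and 23.1 CPM. STMN2, of the same list, had 343, 175, 0 and 318 counts, and was lower in PBS replicate 2 than in PBS replicate 1 (0.630 times in CPM). DCX and ELAVL4, which mark young neurons, had 0 counts.

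PTPRZ1 binds the growth factors pleiotrophin (PTN) and midkine (MDK) and cell adhesion molecules. PTN had 779 and 884 counts in the PBS libraries, and 0 in rIL-17B replicate 1 against 608 in replicate 2, and MDK had 1317, 1291, 6 and 1116. NCAM1 had 180, 208, 0 and 151 counts. L1CAM had higher levels in the treated libraries, at 148 and 144 CPM in the PBS pair and 331 and 174 CPM in the rIL-17B pair. Of the 7 genes in this list, 6 were tested, 5 were 2-fold lower and 1 was 2-fold higher in rIL-17B replicate 1, and 0 were called by edgeR.

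The partners of the lecticans included genes with counts far above those of BCAN and NCAN. VCAN, the lectican of many connective tissues, had 26147 and 20074 counts in the PBS libraries, and 14 in rIL-17B replicate 1 against 23919 in replicate 2, and HAPLN1, a link protein that ties lecticans to hyaluronan, had 737, 419, 0 and 585. Of the 12 genes in that list, 9 were tested and 8 were 2-fold lower in rIL-17B replicate 1. CD44, the hyaluronan receptor, was the exception at 180, 170, 177 and 189 CPM. VCAN and HAPLN1 were not higher in PBS replicate 2 than in replicate 1 (0.947 and 0.702 times in CPM), and none of the 9 reached 1.5-fold, whereas PTPRZ1, OLIG1, OLIG2 and FABP7 did. The 12 enzymes that build chondroitin sulfate were all tested. Of them 3 were 2-fold lower in rIL-17B replicate 1, XYLT1 among them (88.9, 110, 3.90 and 68.0 CPM), and the median log2 ratio there was -0.20. The 3 of higher mean level than XYLT1 were not 2-fold lower there. They were CHPF (227, 258, 146 and 213 CPM), CHPF2 (124, 137, 152 and 133 CPM) and CHST3 (93.3, 102, 107 and 102 CPM).

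**Figure D4:**
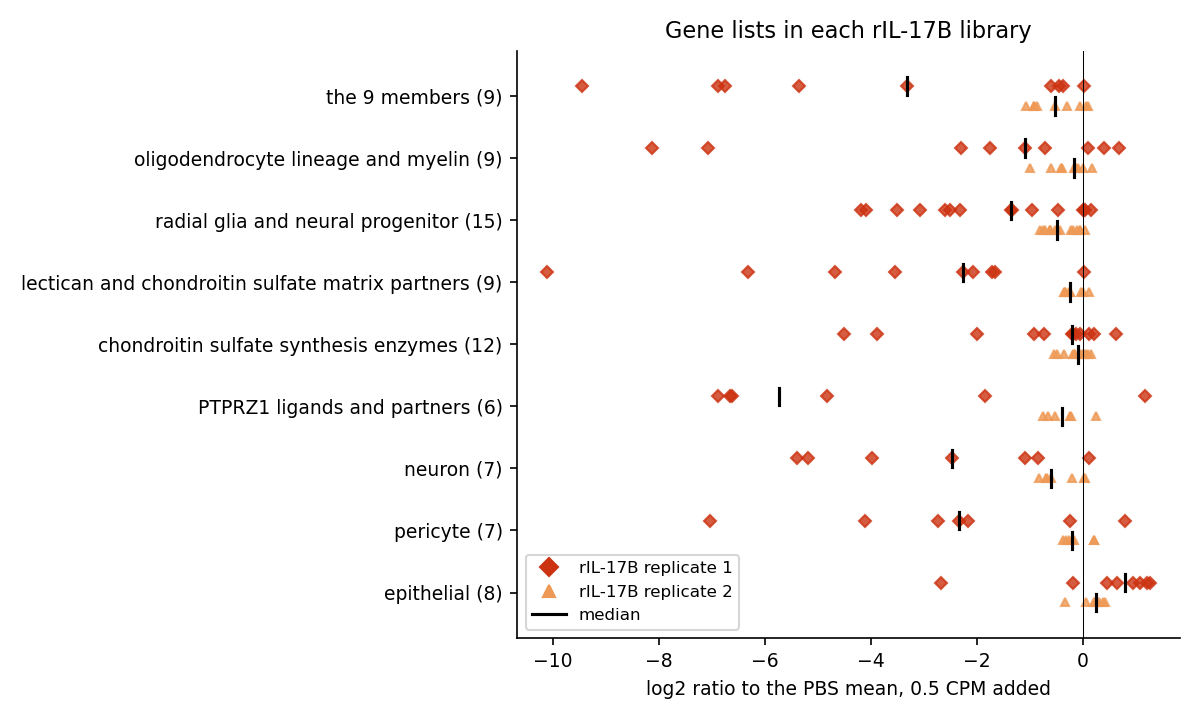
Log2 ratio to the PBS mean (x axis, 0.5 CPM added) of single genes in rIL-17B replicate 1 and replicate 2, for the 9 genes and for 8 lists (number of genes drawn in brackets, those tested for the lists). Black bars are medians. The median of the 9 genes is -3.31 in rIL-17B replicate 1 against -0.53 in replicate 2, and of the 8 lists drawn the epithelial list is the one with medians above 0 in both.

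Markers of other cell types differed between the libraries in both directions, and their part in the results was not tested. Over the whole lists, the summed level of 11 epithelial genes was 1005 and 1000.2 CPM in the PBS libraries and 2243 and 1259 CPM in the treated ones, with 3 of 8 tested at least 2-fold higher and 1 (KRT19) lower in rIL-17B replicate 1. That of 7 pericyte genes was 901, 910, 630 and 865 CPM, with PDGFRB, which defines pericytes and other mesenchymal cells, at 166, 180, 34.1 and 151 CPM and RGS5 between 3.02 and 5.43 CPM. All 7 were tested and 5 were at least 2-fold lower in rIL-17B replicate 1. NOTCH3, a receptor of mural cells, had 1235, 1123, 2 and 1116 counts, and ACTA2, smooth muscle actin, had 317, 309, 17.7 and 262 CPM. The sum is carried by MCAM, an adhesion molecule that had 333, 325, 575 and 381 CPM. The 11 Schwann cell and melanocyte genes summed to 117 and 120.3 CPM in the PBS libraries and 179.9 and 133 CPM in the treated ones, with TYR at 0 in all 4. The 8 leukocyte and monocyte genes summed to 19.2, 16.99, 8.42 and 20.4 CPM, with PTPRC at 47, 22, 0 and 36 counts. Of these genes 5 were tested, and 4 were at least 2-fold lower in rIL-17B replicate 1. The sum in that library is carried by CSF1R, which went the other way with 3.90, 5.59, 8.14 and 6.15 CPM. The 13 gastric genes summed to 43.4, 44.6, 42.8 and 43.3 CPM, although 3 of the 6 tested were at least 2-fold lower in rIL-17B replicate 1. Among these, GATA6 had 15.2, 11.4, 1.57 and 12.1 CPM.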

How the data were processed

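Each library is a Smart-seq2 RNA-seq library of HGC-27 cells (oligo-dT primer, PCR). The authors deposited raw read counts per gene name. The submitters' processing notes name Bowtie2 2.2.3, HISAT2 2.1.0, TopHat2, HTSeq 0.6.0 and the build hg38, without their roles; annotation and use of strand are not given in the sources used here, and PCR copies were counted as reads. Repeated names (83 to 98 in a library, with equal counts) were used once. Between 22 and 25 entries per library with names turned into spreadsheet dates (at most 0.244% of counts) were left out, and names missing from a library were set to 0. CPM is the count divided by the remaining total, times 1000000. Of 31907 names, 97.84% were found once in GENCODE 29, the source of coordinates and merged exon lengths. The fit used edgeR 4.0.16 in R 4.3.3 (TMM factors 0.970 to 1.07, filterByExpr, quasi-likelihood test, Benjamini-Hochberg, threshold 0.05) and was tested on simulated data. The alternatives were DESeq2 1.42.0, upper-quartile normalization, other filters, a replicate block and leaving out each library. The 9 genes and all lists were chosen with earlier results of these data known. Named were the 9 genes, genes of the fixed lists (the 4 of highest mean CPM or defining markers), and the 2 nearest profiles of each member with at least 20 counts in each PBS library. Other genes were named after their values were seen: AASS, IFNAR1, SYNJ1, SMPDL3A, the overlapping genes, FABP5, POU3F2, NKX2-2, HAPLN1, NCAM1 and the genes of the closing observations.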

Additional observations from a re-analysis of the deposited data

How the results depend on the processing

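The count of 0 genes called, and of 0 members called, was the same with DESeq2, with upper-quartile scaling, without filtering, with a minimum of 10 counts per library (which leaves 3 of the 9 genes) and without either PBS library. An adjusted p threshold of 0.1 also gave 0 genes. Leaving out each library in turn gave between 0 and 9376 genes and between 0 and 6 members called, the high end without rIL-17B replicate 2, with 495 genes and 5 members without rIL-17B replicate 1. The median log2 fold change of the 8 members tested was -1.71, and between -7.24 and -0.71 when each library was left out, where the low end holds genes at 0 in the treated group and depends on the prior count. With a minimum of 10 counts per library it was -0.42, over the 3 genes left (BCAN, CSPG4 and CNP). With the replicate number as a block it was -3.26, with 0 genes and 0 members called. Same-numbered libraries deviated together with a correlation of 0.080 across genes, and nothing else pairs them. The log2 fold change of CNP changed sign between alternatives (-0.02 with all libraries, 0.025 without PBS replicate 2, 0.058 without rIL-17B replicate 1, -0.11 at the lowest), and those of the other 7 members tested kept their sign in each alternative run. Both rIL-17B libraries lay below the PBS libraries for 5 of the 9 genes, and for between 5 and 8 when a library was left out, with 8 without PBS replicate 1 or without rIL-17B replicate 2. The number at least 2-fold below PBS in rIL-17B replicate 2 was 1 against the PBS mean, 5 without PBS replicate 1 and 0 without PBS replicate 2. For both counts the share over all genes tested was computed only with all libraries (27.5% and 2.08%). Fewer libraries also make non-overlap easier to meet. The counts with a library left out therefore have no share to be set against. The counts for rIL-17B replicate 1, for the gap between the PBS libraries and for the order of the libraries did not move by over 1.5 times in the alternatives run. The last 2 and the count of members called were added after the data were seen. With 2 libraries a group and 1 that stands apart, the spread and not the depth limits these comparisons, except for NCAN and BCAN.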

Other observations

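HBA2 and HBA1, the alpha globin genes of red blood cells, had the largest ratios of PBS replicate 2 to PBS replicate 1 among the 8897 genes with at least 200 counts in each PBS library. HBA2 had 269 and 689 CPM in the PBS libraries and 0.889 and 264 CPM in the treated ones, and HBA1 had 25.5, 55.9, 0.137 and 23.9 CPM. In both, PBS replicate 1 and rIL-17B replicate 2 were close. They are near-identical copies, so counts of the pair are uncertain. They were chosen after their values were seen.

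Other genes of the same 49, also chosen after their values were seen and tested for no shared function, were the following. DCC, a netrin receptor, had 18.4 and 30.1 CPM in the PBS libraries and 0 and 13.3 CPM in the treated ones. UNC5D, another netrin receptor, had 14.5, 22.8, 0.958 and 9.40 CPM, and RGMA, a guidance molecule that binds neogenin, had 21.8, 34.8, 4.93 and 18.1 CPM. KIF1A, a kinesin motor of axons, had 13.8, 28.1, 0.274 and 9.63 CPM. Of the 49, PRAG1 (12.8, 21.1, 12.2 and 13.2 CPM) and ZNF574 (15.3, 23.3, 16.4 and 17.8 CPM) were exceptions, with rIL-17B replicate 1 near PBS replicate 1.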
